A study of Mus musculus with 92 samples.

Results

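The genes described here are 9 markers of fibroblasts and fibro-adipogenic progenitors, the connective tissue cells of skeletal muscle. They are Pdgfra, Pdgfrb, Cd248, Ly6a, Fap, Dcn, Lum, Dpt and Acta2, chosen by symbol and not by their values, and each is 1 row of the 23811 gene rows of the deposited FPKM table. In the study, RNA was sequenced from a lower leg muscle, the tibialis anterior, after a freeze injury of the left leg, made with a dry ice-cooled steel probe in 10-week-old C57BL/6J males. The injured left muscle was compared with the uninjured right muscle of the same mice at 9 times between 3 h and 28 days, to follow how expression changes while the muscle heals. No group carried a transgene or a deletion, and the control leg belonged to a mouse that also had an injured leg. There were 5 injured and 5 control legs at 10, 24 and 72 h and after 14 and 28 days. The 3 h groups had 2 injured and 3 control legs, the 48 h and the 7-day groups 3 and 4, and the 21-day groups 4 and 3.

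Fibro-adipogenic progenitors are mesenchymal cells that lie between the muscle fibers and along vessels. They are known to proliferate after injury, to lay down matrix and to support muscle stem cells, and they can give rise to adipocytes and to matrix-producing fibroblasts. Platelet-derived growth factors act on such cells through the receptor tyrosine kinases encoded by Pdgfra and Pdgfrb, and Pdgfra is the marker most used to define fibro-adipogenic progenitors, with Ly6a in the mouse. Decorin, lumican and dermatopontin are secreted matrix proteins that bind collagen, and smooth muscle actin, the product of Acta2, marks vascular smooth muscle and myofibroblasts.

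FPKM, the unit of all levels below, divides the fragments of a gene by its length and by the size of the library, so the read depth behind a value is unknown and no counting interval was given. The library sum of FPKM ran between 287291 and 828110, and 5611 to 11572 genes stood above 1 FPKM in a leg. The lowest of these counts belonged to the 72 h control leg of mouse 2, which also had the lowest Pdgfra, Pdgfrb and Cd248 of all 39 control legs. The 7-day injured library of mouse 5 was left out: it listed all 9 markers at 0 and only 334 genes above 0. In the legs used no marker was at 0, and all 9 passed the low-value filter (a mean of 1 FPKM or more in a group) through control as well as injured groups. The fibers of the muscle were plain in these libraries, with a summed level of 11 fast fiber genes of 28253 to 76837 FPKM in injured legs and 70217 to 97773 FPKM in control legs at 72 h.

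Promoter windows of 250 bases before to 50 bases after the annotated start were given by RefSeq (GRCm38.p6) for 3 of the 9 markers. These 3 are shown because no window was available for the other markers. Pdgfra was called by 10 h, Acta2 by 48 h and Dpt by 72 h, and a relation of motifs to these times was not tested. Capitals mark matches to 3 motifs searched on both strands: a CArG-like box, the site of serum response factor, with at most 1 base of its A/T core being G or C; TATAAA; and TGANTCA, the AP-1 motif. No match overlapped another.
Pdgfra, chr5:75152001-75152300, plus strand: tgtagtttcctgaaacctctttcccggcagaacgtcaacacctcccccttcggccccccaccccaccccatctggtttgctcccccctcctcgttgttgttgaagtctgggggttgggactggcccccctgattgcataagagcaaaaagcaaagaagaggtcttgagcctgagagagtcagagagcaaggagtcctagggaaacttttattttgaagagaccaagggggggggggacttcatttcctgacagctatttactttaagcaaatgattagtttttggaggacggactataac
Dpt, chr1:164796413-164796712, plus strand: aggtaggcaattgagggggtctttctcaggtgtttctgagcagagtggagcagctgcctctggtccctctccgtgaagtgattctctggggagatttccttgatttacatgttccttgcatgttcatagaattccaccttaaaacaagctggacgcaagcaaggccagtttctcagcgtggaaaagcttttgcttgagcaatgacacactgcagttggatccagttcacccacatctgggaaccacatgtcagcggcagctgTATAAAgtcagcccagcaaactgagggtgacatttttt
Acta2, chr19:34255324-34255623, minus strand: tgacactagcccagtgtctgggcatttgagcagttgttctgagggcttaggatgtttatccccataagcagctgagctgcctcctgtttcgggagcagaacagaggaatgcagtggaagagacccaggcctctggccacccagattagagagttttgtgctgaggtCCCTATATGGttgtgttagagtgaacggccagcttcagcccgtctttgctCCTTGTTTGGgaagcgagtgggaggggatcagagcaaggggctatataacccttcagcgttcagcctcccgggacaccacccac
The Acta2 window, of a gene for an actin of contractile cells, held 2 CArG-like boxes, at bases 167 to 176 and 217 to 226, where the start is base 251. The Dpt window held TATAAA at bases 263 to 268, and the Pdgfra window held none of the 3 motifs. Of 32851 RefSeq windows of this length, 9.98% held a CArG-like box, 13.6% TATAAA and 7.81% TGANTCA. A match is a description of the letters, and factor binding was not measured here.

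In uninjured muscle the markers differed widely in level, and FPKM, being per length, allows genes to be compared. Over the 39 control legs Dcn had a median of 109 FPKM (range 39.8 to 442) and Ly6a one of 30.5 FPKM (13.9 to 132). Dpt (median 10.7, range 3.84 to 52.9) and Lum (9.02, 2.98 to 26.1) followed, then Acta2 (4.44, 1.90 to 8.70) and Pdgfrb (2.24, 0.696 to 4.41). The lowest 3 were Fap (1.11, 0.593 to 3.44), Pdgfra (0.938, 0.179 to 3.39) and Cd248 (0.828, 0.269 to 4.13). The ranges of neighbours in this order overlapped, while every control leg had more Dcn than any had Lum or Acta2. Among the 9 control groups only Pdgfrb differed over time (limma F test, adjusted p = 0.0313), with the lowest level at 72 h and the highest at 14 days, where the same test called 21.5% of all genes tested. That call was lost, leaving 0 markers, without the 72 h control leg of mouse 1 or of mouse 2 or the 14-day control leg of mouse 3 or of mouse 5.

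**Figure D1:**
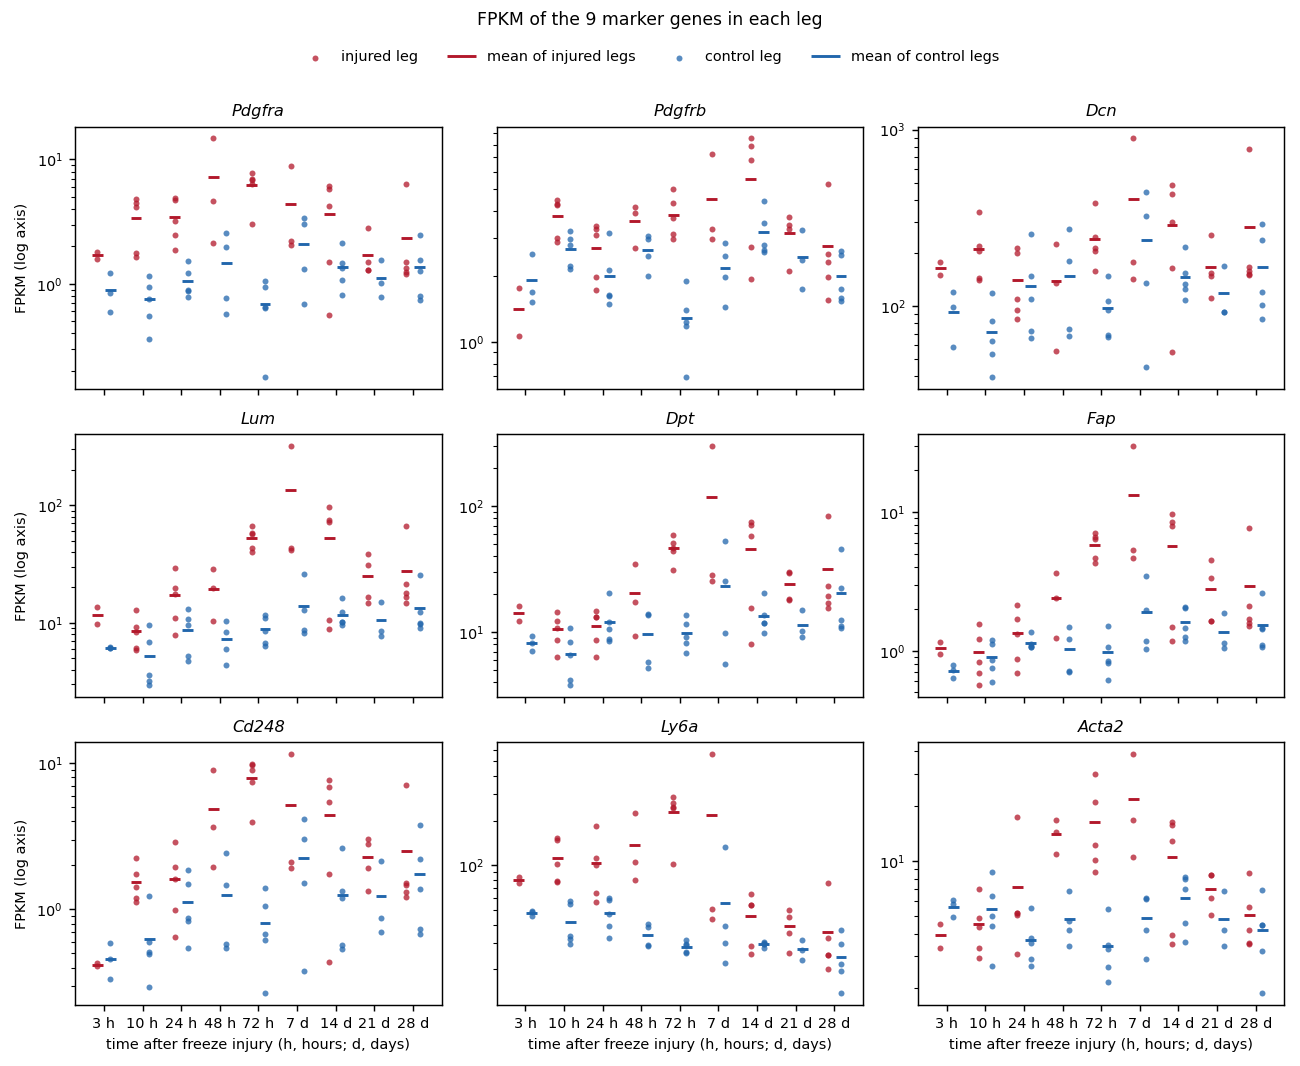
FPKM on a log axis of each of the 9 markers in every leg, by time after injury, with injured legs in red left of control legs in blue and a bar at each group mean. At 72 h every injured leg lies above every control leg in all 9 panels, and at 7 and 28 days a lone injured leg lies far above the rest in most panels.

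All 9 markers had higher FPKM in injured muscle at 72 h, and the first call of a marker came between 10 h and 72 h. A gene was called at a time where its adjusted p in limma, over the 12099 genes tested, was under 0.05 and the log2 difference of injured over control was at least 1, which is 2-fold. No marker was called at 3 h, against 1.69% of all genes called higher. Called higher were 3 of 9 markers at 10 h (11.8% of all genes), 2 by the 24 h test (17.6%), 5 by the 48 h test (33.1%) and all 9 at 72 h (50.2%). After 7 days 5 were called (21.6%), and after 14 days 1 (2.89%). Single legs moved these counts: that of 24 h was 1 without control mouse 1, 4 or 5 or injured mouse 2, 4 or 5, and that of 48 h was 3 without control mouse 4 or 5 and 2 without injured mouse 4. Scaling moved them too. With quantile normalization 0 were called at 24 h, where Pdgfra (0.99, adjusted p = 0.0348) and Ly6a (0.96, adjusted p = 0.0116) were under 2-fold, and 2 at 48 h, Pdgfra and Ly6a. Lost at 48 h were Lum (0.83, adjusted p = 0.178), Cd248 (0.84, adjusted p = 0.195) and Acta2 (0.95, adjusted p = 0.0485, under 2-fold). At 72 h 7 were called with this normalization, without Pdgfrb and Dcn. The share of all genes called with this normalization is not given, so these counts cannot be set against it. Without this normalization none was called at 21 days and 28 days, against 0.00827% and 0.0496% of all genes, although all 9 differences were above 0. An unadjusted limma p under 0.05 was reached by 1 marker at 21 days (5.41% of all genes) and by none at 3 h (11.6%) or 28 days (3.15%). No marker was called lower at any time, against shares of all genes, in order of time, of 0.0579%, 0.438%, 0.661%, 1.56%, 0.612%, 1.95%, 0.0331%, 0% and 0.0331%. The median log2 difference of all genes tested at 72 h was 1.01, and -0.28 with quantile normalization. FPKM is relative to the library. In bulk tissue, more cells of a type, more RNA per cell and a smaller share of other RNA cannot be told apart.

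**Figure D2:**
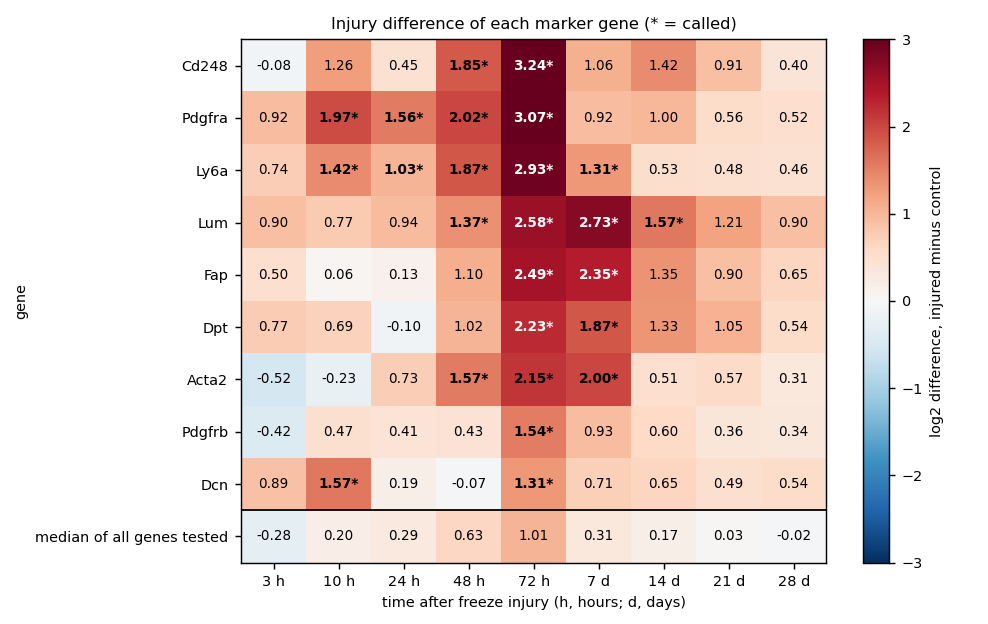
Log2 difference of injured minus control FPKM for the 9 markers (rows, ordered by the 72 h value) at 9 times (columns), with the median of all genes tested in the last row; stars mark called differences. Pdgfra, Ly6a and Dcn are called by 10 h, all 9 at 72 h, and Lum still at 14 days.

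The receptor gene Pdgfra rose early. It had 4.46, 1.76, 4.78, 4.18 and 1.64 FPKM in the 5 injured legs at 10 h, against 0.755, 0.938, 1.16, 0.554 and 0.358 FPKM in control legs. All 5 injured legs were above all controls, as they were for 3 of the 9 markers and 24.2% of all genes at 10 h. The log2 difference was 1.97 ± 0.49 (SE; adjusted p = 0.00197). At 24 h Pdgfra had 2.46, 4.75, 1.88, 3.22 and 4.93 FPKM in injured legs against 0.897, 1.53, 1.23, 0.777 and 0.876 FPKM in control legs, and it alone among the markers did not overlap between the groups (21.1% of all genes). The difference was 1.56 (adjusted p = 0.0101), and at 48 h it was 2.02 (adjusted p = 0.00349). The 48 h level rested on mouse 4, with 14.8 FPKM against 4.68 and 2.14 FPKM in the other injured legs, and without that leg the difference was 1.29 (adjusted p = 0.117).

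At 72 h Pdgfra reached 3.02, 6.40, 7.80, 6.82 and 6.98 FPKM in injured legs, against 1.06, 0.179, 0.656, 0.635 and 0.937 FPKM in control legs. The difference was 3.07 ± 0.49 (adjusted p = 1.39e-07), and 2.73 without the control leg of mouse 2, whose Pdgfra was the lowest. Pdgfrb, the receptor that pericytes and fibroblasts share, had 2.98, 3.69, 5.04, 4.34 and 3.13 FPKM in injured legs against 1.19, 0.696, 1.24, 1.91 and 1.40 FPKM in control legs. Here too the groups did not overlap, but the difference was smaller, 1.54 ± 0.29 (adjusted p = 4.20e-06). Pdgfrb was called at no other time, with 0.93 at 7 days (adjusted p = 0.0332, under 2-fold; 1.07 and adjusted p = 0.00529 with the mouse as a block). At 72 h its call depended on the comparator: controls of 72 h were the lowest of the series for Pdgfrb, and against the mean of all 9 control groups the difference was 0.78. With quantile normalization it was 0.032 (adjusted p = 0.902). The 72 h control group was also the lowest for Pdgfra and Acta2. Their control groups did not pass the limma F test over time (adjusted p = 0.382 and 0.576). Differences of the other markers at 72 h against the mean of all 9 control groups are not given here. The lone isoform row of Pdgfrb held a median of 59.7% of its gene level (0.0448% to 99.99% over the legs), so how its fragments were divided is uncertain.

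Within a leg, the ratio of Pdgfra to Pdgfrb was higher in injured muscle at 10, 24 and 72 h. The mean log2 ratio of Pdgfra to Pdgfrb was -0.28 ± 0.45 (SD, n = 5) in injured legs and -1.77 ± 0.50 (n = 5) in control legs at 10 h. At 24 h it was 0.30 ± 0.29 in injured legs against -0.85 ± 0.60 in control legs, and at 72 h 0.64 ± 0.40 in injured legs against -0.90 ± 0.59 in control legs (SD, n = 5 in each group). At all 3 times the groups did not overlap (exact two-sided permutation p = 0.00794, the smallest that 5 against 5 allows; adjusted p = 0.0476 over 36 ratio tests). All called ratios had this same p, and the adjustment let them pass only together. With a pseudocount of 1 these calls were lost. The permutation test did not use the pairing of the legs of a mouse. At 7 days the ratio was -0.27 ± 0.48 in 3 injured legs and -0.26 ± 0.82 in 4 control legs. A limma fit of the same ratio, beside the ratio of every other gene to Pdgfrb, gave adjusted p = 0.000802, 0.00877, 0.00131 and 8.46e-05 for 10, 24, 48 and 72 h, when 12.4%, 19.2%, 29.5% and 64.2% of all genes passed.

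**Figure D3:**
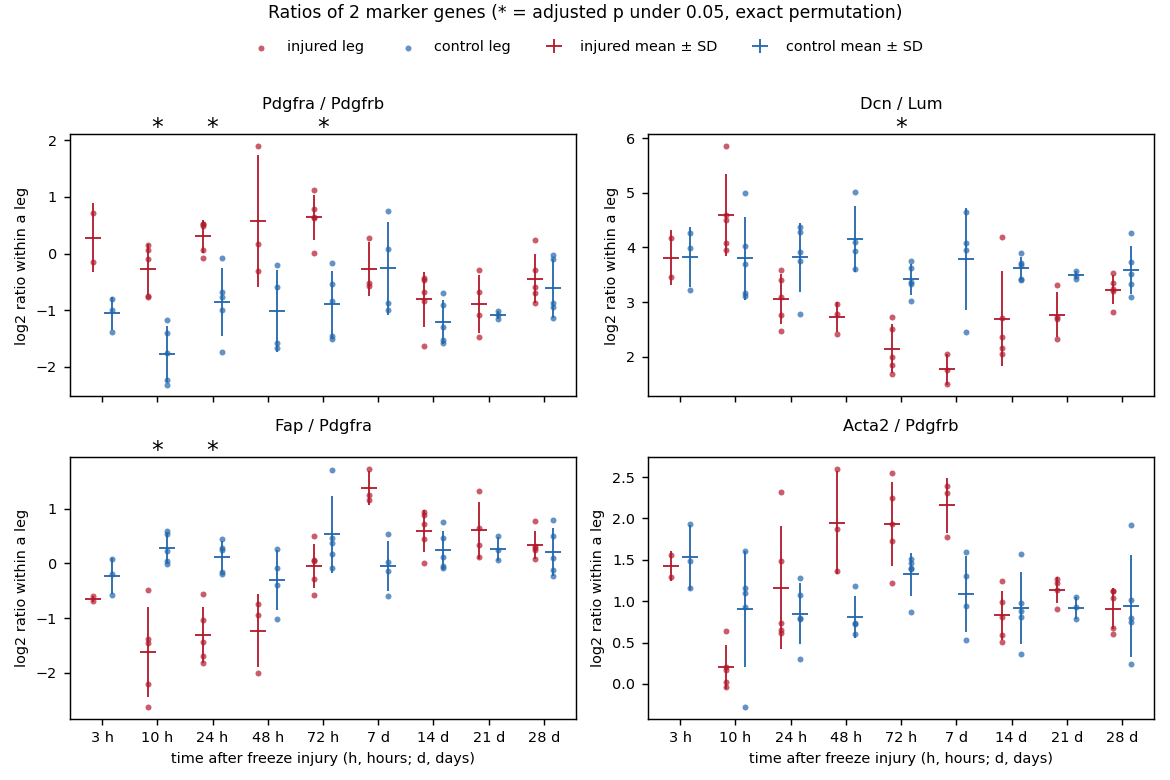
Log2 ratio of 2 markers within each leg by time after injury, injured legs in red left of control legs in blue, with the mean and SD of each group; stars mark adjusted p under 0.05 in exact permutation tests. Pdgfra to Pdgfrb is higher in injured legs at 10, 24 and 72 h, Dcn to Lum lower at 72 h, and Fap to Pdgfra lower at 10 and 24 h.

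Of the 4 genes for platelet-derived growth factors, 2 were called higher at 72 h, a share like the 50.2% of all genes, and their median difference was 0.70 beside 1.01 for all genes. Pdgfc, a ligand of the alpha receptor, averaged 2.03 ± 1.06 FPKM in injured legs and 0.122 ± 0.0599 FPKM in control legs at 72 h (SD, n = 5 each; log2 difference 3.16, limma adjusted p = 2.52e-11). It passed the low-value filter in injured groups only, and of the other 3 ligand genes 1 was called. Pdgfb, the ligand known from endothelium and platelets, averaged 3.83 ± 0.547 FPKM in injured legs and 2.15 ± 1.01 FPKM in control legs (SD, n = 5 each; limma 1.01, adjusted p = 0.00141). Pdgfa and Pdgfd differed by 0.26 (adjusted p = 0.343) and 0.38 (adjusted p = 0.202).

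Of the surface proteins, Cd248 (endosialin, of stromal cells) was called at 48 h and 72 h. At 72 h it stood at 3.95, 7.43, 9.67, 8.95 and 9.94 FPKM in injured legs against 1.05, 0.269, 0.678, 0.616 and 1.39 FPKM in control legs (3.24 ± 0.56, adjusted p = 7.28e-07; 2.96 without the control leg of mouse 2). At 48 h the difference was 1.85 (adjusted p = 0.0183), and it was not called without the injured leg of mouse 4 (1.27, adjusted p = 0.189). At 10 h it had 2.25, 1.13, 1.75, 1.42 and 1.19 FPKM in injured legs against 0.493, 0.596, 1.24, 0.511 and 0.293 FPKM in control legs. The difference of 1.26 missed the threshold (adjusted p = 0.105) and passed it with the mouse as a block (adjusted p = 0.0307).

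Ly6a, the surface antigen used with Pdgfra to sort these progenitors, was called from 10 h to 7 days. At 10 h it had 152, 78.2, 148, 102 and 77.8 FPKM in injured legs against 57.5, 33.5, 55.3, 31.9 and 29.7 FPKM in control legs, with no overlap (1.42 ± 0.40, adjusted p = 0.00643). The 24 h difference was 1.03 (adjusted p = 0.0388), and 0.79 (adjusted p = 0.176) without the injured leg of mouse 5. At 72 h it had 102, 264, 289.6, 248 and 242 FPKM in injured legs against 29.0, 26.1, 25.8, 31.4 and 29.5 FPKM in control legs (2.93 ± 0.40, adjusted p = 2.73e-09), the smallest adjusted p of the 9 markers. Ly6a lies among close paralogs, and the lone isoform row of the deposited table held a median of 26.8% of its gene level, so how fragments were divided here is uncertain. Of 6 other Ly6 family genes tested, 5 were also called higher at 72 h (50.2% of all genes), Ly6c2 of monocytes by 5.37, Ly6e by 4.50, Ly6d by 1.56 and Ly6c1 by 1.43, whereas Gpihbp1 of capillary endothelium differed by 0.18 (adjusted p = 0.624); the remaining call, Ly6h, was listed at 0 in all 5 control legs. Ly6d and Ly6h passed the low-value filter in injured groups only.

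Fap, fibroblast activation protein, a membrane serine protease, was not called before 72 h, except at 48 h with the mouse as a block (1.28, adjusted p = 0.0108). At 10 h it had 1.57, 1.22, 0.694, 0.829 and 0.569 FPKM in injured legs and 0.751, 1.11, 1.20, 0.853 and 0.593 FPKM in control legs, and the groups overlapped (0.059, 95% interval -0.79 to 0.91). At 72 h it had 4.31, 6.64, 6.36, 7.11 and 4.66 FPKM in injured legs against 1.50, 0.817, 0.615, 0.849 and 1.07 FPKM in control legs (2.49 ± 0.43, adjusted p = 5.18e-07). Relative to Pdgfra, Fap was lower in injured legs early: the mean log2 ratio was -1.63 ± 0.82 in injured legs against 0.28 ± 0.28 in control legs at 10 h, and -1.31 ± 0.51 in injured legs against 0.12 ± 0.28 in control legs at 24 h (SD, n = 5 each; exact two-sided permutation p = 0.00794, adjusted p = 0.0476). These calls too passed only together with the other called ratios, and were lost with a pseudocount of 1. Most genes differed in their ratio to Pdgfra at these times: 89.8% of all genes passed in the limma fit at 10 h and 72.5% at 24 h, so a lower ratio was not particular to Fap. At 7 days the sign was the other way, with 1.38 ± 0.31 in 3 injured legs and -0.044 ± 0.46 in 4 control legs. These legs did not overlap, but 3 against 4 cannot go below p = 0.0571 in an exact permutation test (adjusted p = 0.137). The limma fit of the ratio gave adjusted p = 0.0146, with 6.81% of all genes passing.

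Among the matrix genes, Dcn was called at 10 h and 72 h, Lum from 48 h to 14 days and Dpt at 72 h and 7 days. Dcn, the most abundant marker, had 218, 145, 341, 204 and 140.0 FPKM in injured legs against 63.2, 82.7, 118, 53.3 and 39.8 FPKM in control legs at 10 h. The groups did not overlap (1.57 ± 0.51, adjusted p = 0.0181). At 48 h injured legs had 136, 224 and 55.7 FPKM and control legs 273, 179, 67.5 and 74.2 FPKM, a difference of -0.068 (95% interval -1.29 to 1.15). The limma change of the Dcn injury difference was -1.39 from 10 to 24 h (adjusted p = 0.504). From 48 to 72 h it was 1.38 (adjusted p = 0.349), and neither change was called. At 72 h Dcn was called higher, with 159, 386, 206, 213 and 246 FPKM in injured legs against 149, 95.5, 66.7, 68.6 and 107 FPKM in control legs (1.31 ± 0.51, adjusted p = 0.0169). It rested in part on the injured leg of mouse 2, without which it was 1.13 (adjusted p = 0.0545), and with quantile normalization it was 0.89 (adjusted p = 0.0633).

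At 72 h Lum had 39.7, 58.2, 57.2, 66.4 and 43.2 FPKM in injured legs against 10.9, 11.6, 6.39, 6.71 and 8.56 FPKM in control legs (2.58 ± 0.48, adjusted p = 2.60e-06). Dpt had 31.2, 58.7, 50.6, 47.0 and 44.3 FPKM in injured legs against 13.6, 8.16, 9.10, 6.86 and 11.7 FPKM in control legs (2.23 ± 0.51, adjusted p = 8.98e-05). For both, the lowest injured leg was more than 2-fold above the highest control leg. Lum was also called at 48 h (1.37, adjusted p = 0.0396; 1.04, adjusted p = 0.216, without the injured leg of mouse 4), while Dpt at 48 h differed by 1.02 (adjusted p = 0.155; 1.25, adjusted p = 0.0129, with the mouse as a block).

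Dcn and Lum are neighbours on chromosome 10 of mm9, 47338 bp apart on the plus strand (Dcn at 96942134 to 96980796, Lum at 97028135 to 97035337), and both encode small leucine-rich proteoglycans. Their ratio within a leg was lower after injury at 72 h: the mean log2 ratio of Dcn to Lum was 2.15 ± 0.45 in injured legs and 3.42 ± 0.28 in control legs (SD, n = 5 each; exact two-sided permutation p = 0.00794, adjusted p = 0.0476). This call passed only together with the other called ratios, and was lost with a pseudocount of 1. At 7 days the mean log2 ratio of Dcn to Lum was 1.77 ± 0.28 in 3 injured legs and 3.78 ± 0.93 in 4 control legs with no overlap (exact permutation p = 0.0571, adjusted p = 0.137). In the limma fit the ratio of Dcn to Lum also passed at 48 h (-1.43, adjusted p = 0.0228) and 14 days (-0.93, adjusted p = 0.0249). Of all genes set against Lum, 16.2% passed at 48 h, 76.1% at 72 h, 89.2% after 7 days and 81.4% after 14, so a changed ratio to Lum was not particular to Dcn. At 3 h the ratio was 3.82 ± 0.51 in 2 injured legs and 3.83 ± 0.54 in 3 control legs. Of 10 other small leucine-rich proteoglycan genes tested, 5 were called higher at 72 h, among them Bgn (biglycan) by 4.29, Aspn (asporin) by 2.72, Ogn by 2.17 and Prelp by 1.99, and none was lower. This share was like the 50.2% of all genes.

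The isoform table divided Dcn between 2 start sites that share their coding sequence, 1 with an upstream start at 96942134 and 1 with a downstream start at 96944984 of chromosome 10. The upstream form made up 57.3 ± 4.05% of Dcn in injured legs and 43.4 ± 8.65% in control legs at 72 h (SD, n = 5 each; exact two-sided permutation p = 0.0159, adjusted p = 0.179 over 15 tests). At 14 days the shares were 62.6 ± 6.16% in injured legs and 49.7 ± 6.12% in control legs (exact permutation p = 0.0238, adjusted p = 0.179), so neither passed. At 24 h the order was the other way, 38.9 ± 7.17% in injured legs and 48.2 ± 8.01% in control legs (exact permutation p = 0.103, adjusted p = 0.429). For Pdgfra, also with 2 start sites, the upstream form held a median share of 99.9% in the 36 injured legs with at least 1 FPKM, and no share under 53.8% in the 19 such control legs. Of the 15 share tests of both genes, 0 passed after adjustment and 2 had an unadjusted p under 0.05.

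Acta2, the smooth muscle actin gene with the CArG-like boxes shown above, was called at 48 h, at 72 h and after 7 days. At 3 h it had 3.32 and 4.50 FPKM in injured legs against 4.94, 6.15 and 5.79 FPKM in control legs (-0.52, adjusted p = 0.637), the only marker with every injured leg below the controls (50.7% of all genes), while 6 of 9 markers had every injured leg above them (11.4% of all genes). At 48 h it had 10.9, 14.5 and 16.9 FPKM in injured legs against 6.87, 4.67, 3.40 and 4.18 FPKM in control legs, with no overlap, as for 2 of the markers and 60.4% of all genes at that time (1.57 ± 0.46, adjusted p = 0.00361). At 72 h it had 10.1, 8.74, 29.9, 21.0 and 12.3 FPKM in injured legs against 3.30, 2.16, 3.44, 5.45 and 2.64 FPKM in control legs (2.15 ± 0.39, adjusted p = 1.45e-06). At 24 h a lone injured leg, mouse 5, had 17.5 FPKM against 3.10 to 5.21 FPKM in the other injured legs.

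Other genes of contractile cells were not all called beside Acta2. Of 13 contractile and myofibroblast genes tested, 10 were called higher at 72 h (50.2% of all genes), of which Cthrc1 and Adam12 passed the low-value filter in injured groups only. The calls were led by the matrix genes Cthrc1 (log2 difference 6.83), Postn (5.80) and Lox (4.86) and by Tagln2 (4.15). The smooth muscle genes Tagln, Myl9 and Lmod1 were not called, with 0.91 (adjusted p = 0.00680, under 2-fold), 0.34 (adjusted p = 0.279) and 0.48 (adjusted p = 0.233). Of 8 pericyte and vascular smooth muscle markers tested 2 were called higher at 72 h, Mcam by 1.30 and Notch3 by 1.12, a smaller share than the 50.2% of all genes, and the list's median difference was 0.21 beside 1.01 for all genes. Its summed level was 49.6 to 69.6 FPKM in injured legs and 33.1 to 74.7 FPKM in control legs, and Myh11, the smooth muscle myosin, differed by 0.084 (adjusted p = 0.773). The ratio of Acta2 to Pdgfrb, which pericytes also express, was 1.94 ± 0.51 in injured legs and 1.33 ± 0.26 in control legs at 72 h on the log2 scale (SD, n = 5 each; exact two-sided permutation p = 0.0476, adjusted p = 0.137). In the limma fit this ratio passed at 48 h (1.14, adjusted p = 0.00676; 29.5% of all genes) and 7 days (1.07, adjusted p = 0.0114; 46.6%), and not at 72 h (adjusted p = 0.0527; 64.2%).

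All 9 markers had every injured leg above every control leg at 72 h, as did 57.0% of all genes tested. The median log2 difference of the 9 markers was 2.49 and that of all genes 1.01, and the markers stood between the percentiles 60.5 (Dcn) and 89.4 (Cd248) of all genes. Relative to that median, Dcn stood 0.30 and Cd248 2.23 higher on the log2 scale. Of the 9759 genes that passed the low-value filter in a control group, as all 9 markers did, 40.9% were called higher. Scaling to a common upper quartile called 7 of 9, with Pdgfrb at 0.72 and Dcn at 0.45. The share of all genes called with this scaling is not given.

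Of 24 other fibroblast and fibro-adipogenic progenitor genes tested, 1 was called higher at 3 h (1.69% of all genes), 8 at 10 h (11.8%), 4 by the 24 h test (17.6%), 12 by that of 48 h (33.1%), 19 at 72 h (50.2%), 13 after 7 days (21.6%) and 5 after 14 (2.89%), and none was lower at any time. Of the 24, Hic1, Tcf7l2, Dpp4 and Osr1 passed the low-value filter in injured groups only, and all 4 were among the 19. The median difference of the list at 72 h was 2.50, beside 1.01 for all genes. Largest at 72 h were S100a4 (5.64), Vim (5.06), Col1a1 (4.85) and Col3a1 (4.47), where Col1a1 and Col3a1 encode fibrillar collagens and Vim the filament protein vimentin, which leukocytes also express. Gsn, Clec3b, Smoc2, Pi16 and Prrx1 were not called, with 0.78 to 1.50. Tcf21 was at 0 in 66 of 76 legs and was not tested.

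Markers of other cells were called in differing shares, when 50.2% of all genes were called higher at 72 h and 1.69% at 3 h. Genes that passed the filter in injured groups only were 5 of the 10 macrophage, 4 of the 6 neutrophil, 3 of the 7 satellite cell and 1 of the 10 endothelial markers (Vwf), and all of these were called at 72 h. All 10 macrophage and monocyte markers tested were called higher from 24 h to 7 days, with a median difference of 6.44 at 72 h and a summed level of 1695 to 6958 FPKM in injured legs against 14.7 to 69.4 FPKM in control legs. Of 6 neutrophil markers 5 were called at 3 h, with a median of 4.34, when 0 of the 9 fibroblast markers were. All 7 satellite cell and myoblast markers tested were called at 72 h (median 2.35), and of 10 endothelial markers 3 were, Vwf, Pecam1 and Cldn5, by 1.07 to 1.28. Of 11 fast fiber genes 0 were called at 72 h, with a median of -0.74. Of 5 adipocyte genes tested, 1 was called at 72 h and 2 at 7 days (21.6% of all genes). These 2 were Adipoq (2.85, limma adjusted p = 0.0419) and Pparg (1.33, adjusted p = 0.0102). In injured legs at 7 days Adipoq averaged 15.8 ± 23.0 FPKM and Pparg 3.70 ± 4.50 FPKM (SD, n = 3), and the other adipocyte genes were not called then. The summed adipocyte markers at 7 days were highest in mouse 2, in both of its legs, as given below. The lists of Schwann cell and tendon genes each had 1 gene called at 72 h, Mbp by 1.18 and Scx by 2.75. What part these cells have in the levels of the 9 markers was not tested.

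**Figure D4:**
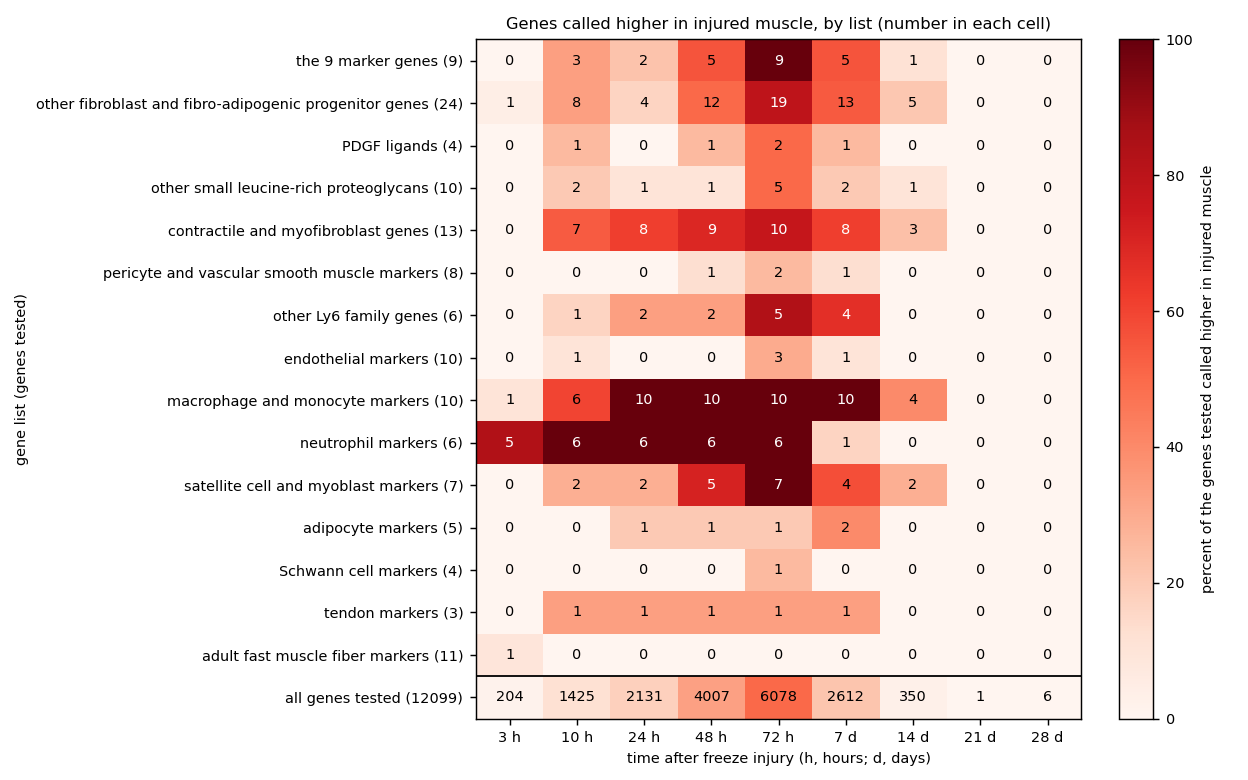
Share of the genes tested in each list (rows, number tested in parentheses) called higher in injured muscle at each time (columns); the number of called genes stands in each cell and all genes tested in the last row. Neutrophil markers are called for 5 of 6 genes at 3 h and for all 6 at 10 to 72 h, macrophage markers for all 10 at 24 h to 7 days, and the 9 fibroblast markers at 72 h.

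After 72 h the difference became smaller for 3 of the markers. With quantile normalization 1 change between neighbouring times was called among the markers, and with upper quartile scaling 0. Between 72 h and 7 days the injury difference fell by 2.15 for Pdgfra (adjusted p = 0.0239), by 2.18 for Cd248 (adjusted p = 0.0417) and by 1.61 for Ly6a (adjusted p = 0.0354), when 31.1% of all genes had a called fall. No other change between neighbouring times was called among the 72 tested for the markers. Of all genes, 0.736%, 0.215%, 0.669% and 1.55% had a called rise over the 4 steps up to 72 h and 0.760% over the step to 7 days, and 0.0496%, 0.107%, 0.0165% and 0.132% had a called fall over the first 4 and 0.314% from 7 to 14 days. Between 72 h and 7 days Lum changed by 0.14 (95% interval -1.35 to 1.64) and Fap by -0.15 (-1.48 to 1.19). Without the control leg of mouse 2 at 72 h, or the injured leg of mouse 3 or mouse 4 at 7 days, 0 of the 3 falls were called, and 1 was without the control leg of mouse 2 or 5 at 7 days or the injured leg of mouse 2, 3 or 4 at 72 h.

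At 7 days 5 markers were called: Lum by 2.73 ± 0.58 (adjusted p = 0.000171), Fap by 2.35 ± 0.51 (adjusted p = 0.000275), Acta2 by 2.0 ± 0.46 (adjusted p = 0.000590), Dpt by 1.87 ± 0.61 (adjusted p = 0.0144) and Ly6a by 1.31 ± 0.48 (adjusted p = 0.0298). Lum had 316, 41.7 and 43.3 FPKM in injured legs against 26.1, 8.69, 8.17 and 12.9 FPKM in control legs. Ly6a had 558, 43.4 and 51.2 FPKM in injured legs against 132, 30.1, 22.2 and 39.3 FPKM in control legs, so that its groups overlapped. Every injured leg was above every control leg for 4 markers and 23.2% of all genes. The highest value in both groups came from mouse 2 for each of these 2 genes. In that mouse all genes summed to 828110 FPKM in the injured leg and 755535 FPKM in the control leg. The other 7-day legs had 372804 to 416162 FPKM. The markers of that mouse summed to 2160 FPKM in the injured leg and 671 FPKM in the control leg, against 285 and 321 FPKM in the other injured legs and 87.8 to 419 FPKM in the other control legs. Its macrophage markers summed to 5915 FPKM in the injured leg, against 293 and 353 FPKM in the others, and its adipocyte markers to 1844 FPKM in the injured leg and 1173 FPKM in the control leg, against 173 to 373 FPKM in the other legs. Without the injured leg of mouse 2 no marker was called at 7 days, and without both legs of that mouse 3 were, Lum by 2.12, Fap by 1.82 and Acta2 by 1.62. Without the control leg of mouse 4, 3 were called. With the mouse as a block 7 were called, with Pdgfrb (1.07, adjusted p = 0.00529) and Cd248 (1.48, adjusted p = 0.0373) beside these 5.

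At 14 days the 5 injured legs differed widely. Lum had 10.6 and 8.85 FPKM in mice 1 and 2 and 96.3, 72.0 and 74.2 FPKM in mice 3, 4 and 5, against 10.2, 9.62, 12.3, 10.2 and 16.3 FPKM in control legs (1.57 ± 0.48, adjusted p = 0.0494). Fap had 1.18, 1.49, 9.61, 7.94 and 8.45 FPKM in injured legs against 1.26, 1.17, 2.06, 1.45 and 2.05 FPKM in control legs (1.35, adjusted p = 0.0551). Dcn had 55.1, 164, 429, 301 and 487 FPKM in injured legs against 153, 125, 133, 109 and 216 FPKM in control legs, and Ly6a 25.4, 28.7, 64.4, 54.3 and 54.3 FPKM in injured legs against 27.7, 30.2, 29.5, 30.5 and 29.4 FPKM in control legs. In all these genes mice 3, 4 and 5 were above every control leg and mouse 1 was not, and no marker was free of overlap (2.14% of all genes). The macrophage markers of the injured legs followed the same split, with 19.5 and 23.1 FPKM in mice 1 and 2 and 386, 288 and 261 FPKM in mice 3, 4 and 5, against 16.3 to 30.0 FPKM in control legs. The count at this time was 0 without any 1 control leg or without injured mouse 3, 4 or 5, 5 of 9 without injured mouse 1 and 3 without injured mouse 2. With the mouse as a block 4 were called: Lum, Dpt (adjusted p = 0.0157), Fap (adjusted p = 0.0146) and Cd248 (adjusted p = 0.0395).

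At 28 days mouse 5 stood apart. Dcn had 158, 167, 153, 151 and 779 FPKM in injured legs against 121, 237, 84.5, 102 and 292 FPKM in control legs (0.54, 95% interval -0.47 to 1.55). Lum had 16.6, 18.1, 21.4, 14.8 and 67.0 FPKM in injured legs against 9.02, 12.2, 9.76, 10.0 and 25.4 FPKM in control legs (0.90, -0.05 to 1.85). Mouse 5 had the highest value in both groups of Dcn and Lum, and without both of its legs the differences were 0.33 and 0.78. All genes summed to 491302 FPKM in its injured leg and 523947 FPKM in its control leg, against 363936 to 415847 FPKM in the other 28-day legs. At 21 days 1 marker, Dpt, had every injured leg above every control leg (6.33% of all genes), and at 28 days none had (1.07%).

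**Figure D5:**
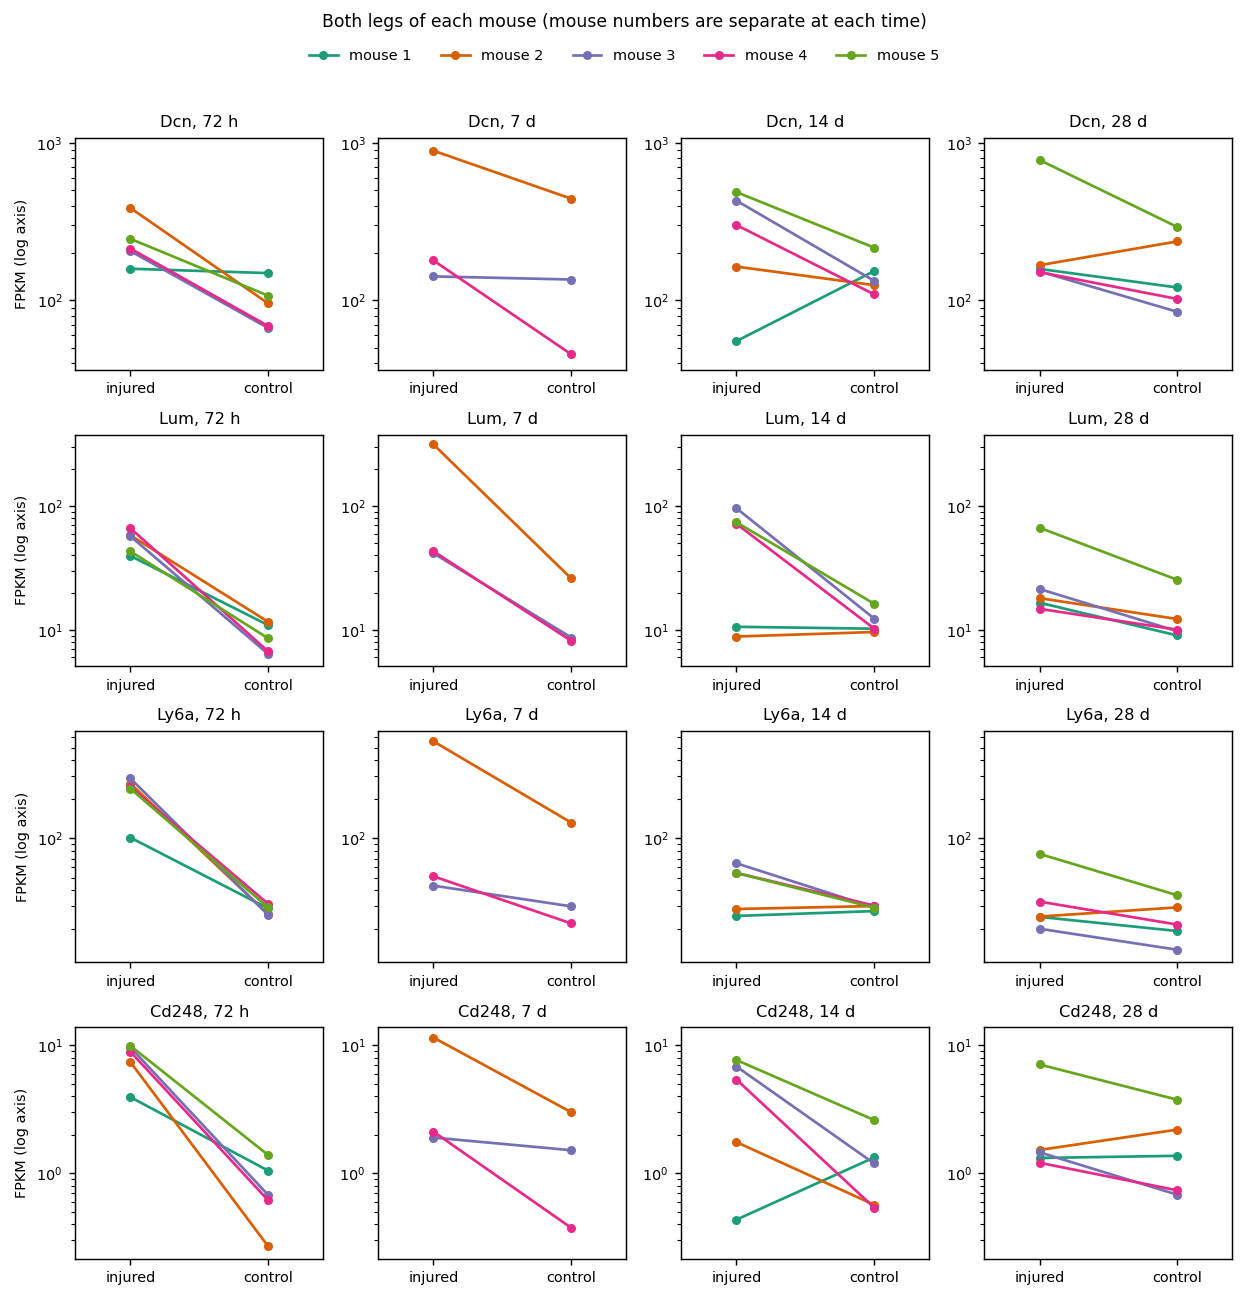
FPKM on a log axis of Dcn, Lum, Ly6a and Cd248 (rows) in the injured leg (left) and the control leg (right) of each mouse with both legs at 72 h and at 7, 14 and 28 days (columns), joined by a line; mouse numbers are separate at each time. All lines fall from left to right at 72 h, mouse 2 lies above the others at 7 days and mouse 5 at 28 days, and at 14 days mouse 1 and mouse 2 stay near the control level for Lum and Ly6a.

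Each leg of mouse 3 at 24 h was represented by 2 libraries, A and B. Lum had 19.4 FPKM in library A and 2.76 FPKM in library B of the injured leg, and 19.7 and 1.95 FPKM in those of the control leg. Libraries A were thus 7.03-fold and 10.1-fold higher in Lum, 4.81-fold and 5.50-fold in Fap and 7.76-fold and 5.93-fold in Cd248, in the injured and the control leg in that order. For Dcn they differed less, with 100.2 and 91.1 FPKM in the injured leg and 119 and 177 FPKM in the control leg. The libraries of a leg were averaged for the tests. With libraries B only, the 24 h call of Ly6a was lost (0.97, adjusted p = 0.0634) and 1 of 9 markers was called.

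Across the 76 legs the log2 levels of the markers were correlated to different degrees, given as a description since legs share their injury and time. Of 36 pairs, Pearson's r ran between 0.39 (Dcn and Acta2) and 0.95 (Lum and Fap), with a median of 0.72. Within groups, after subtracting each group's mean, the median was 0.75, and among the 39 control legs 0.40. The genes most like each marker were Axl, Ddr2 and Fn1 for Pdgfra (r = 0.95 each), Pear1 and Cdc42ep1 for Pdgfrb (0.93 and 0.91), Igfbp6, Lrrn4cl and Serping1 for Dcn (0.93 to 0.94), and Fap, Col3a1 and Fkbp7 for Lum (0.94 to 0.95). For Dpt they were Fap, Plac9a and Mmp2 (0.93 to 0.94), for Fap they were Lum, Col6a3 and Dpt (0.94 to 0.95), and for Cd248 Pcolce, Leprel2 and Scara3 (0.94). Ly6a was most like Ifitm3, Ifitm2 and Sat1 (0.93 to 0.94), genes outside the matrix group, and Acta2 most like Tagln, Csrp1 and Mex3b (0.87 to 0.89), with lower r than any other marker.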

How the data were processed

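The study sequenced strand-specific libraries of injured and control muscle. Before these FPKM were deposited, the authors aligned reads to mm9 with TopHat and estimated levels of genes and isoforms with Cufflinks, as the methods of the paper state. For their own analysis they then excluded replicates that correlated poorly within a group, but the tables used here still held a nearly empty library. Whether the deposited FPKM carry a further scaling by Cuffdiff is not given in the sources used here. Of 92 libraries in the labels, 80 were in the tables and 78 were used, making 76 legs. Another 12 were not analysed here, nor was the control library of unknown time in any comparison.

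From the deposited FPKM, log2(FPKM + 0.1) was fitted with limma 3.58.1 in R 4.3.3 (18 groups, 58 residual degrees of freedom, eBayes with trend) for the 12099 genes that reached a mean of 1 FPKM in any group, with Benjamini-Hochberg adjustment per contrast over all genes. Fold changes are on this scale and understate those of low genes. Ratios and isoform shares went into exact permutation tests, two-sided (Python 3.11.15), adjusted over 36 and 15 tests. These tests relabelled all legs freely, as if the legs of a mouse were independent. On simulated data of the 72 h comparison, 93 of 100 genes changed by 1.5 and 99 of 100 changed by 3 on the log2 scale were called, with 2 false calls among 12099 genes. Legs with the same number at a time are from the same mouse. The deviations of 36 such pairs correlated with a median r of 0.15 (-0.28 to 0.67). A fit with the mouse as a block was run as an alternative, and a leg without its partner adds nothing there. Table coordinates were written 1-based.

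The markers, gene lists and tests were chosen with earlier results of these data known. Named are all 9 markers, in each list at most the 4 called genes with the largest difference at the time with most calls, and the 3 genes most like each marker, of which 1 is not reported here; other genes were named after their values were seen. Alternatives covered pseudocount, filter, scaling, block, comparator, weights and each replicate left out.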

Additional observations from a re-analysis of the deposited data

Results flagged for a closer look

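Among the 117 marker and group combinations with 4 to 10 legs, 15 had an extreme leg whose gap to the next was large for the group's range by Dixon's test. Chance alone gives this in about 1 of 20 where values are normally distributed. The test used FPKM without a log scale, and the markers share their legs, so that rate need not hold here. Most of the 15 came from mouse 5 at 28 days. Its injured leg was far above the others for Pdgfra (6.30 FPKM), Pdgfrb (5.31 FPKM), Dcn (779 FPKM), Lum (67.0 FPKM), Dpt (84.2 FPKM), Fap (7.64 FPKM), Cd248 (7.10 FPKM) and Ly6a (76.1 FPKM), and its control leg for Lum (25.4 FPKM) and Fap (2.62 FPKM). The summed macrophage markers of that injured leg were 197 FPKM, against 36.9 to 79.0 FPKM in the other injured legs. Their part in the levels was not tested.

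Other extreme legs were the injured leg of mouse 1 at 21 days for Pdgfra (2.81 FPKM), the control leg of mouse 2 at 24 h for Fap (1.36 FPKM), the control leg of mouse 2 at 7 days for Ly6a (132 FPKM), the injured leg of mouse 1 at 72 h for Ly6a (102 FPKM, below the others) and the injured leg of mouse 5 at 24 h for Acta2 (17.5 FPKM).

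The injury difference at 7 days was smaller than at 72 h by a test of the change itself for 3 markers, with changes of -2.15 for Pdgfra, -2.18 for Cd248 and -1.61 for Ly6a on the log2 scale (limma adjusted p = 0.0239, 0.0417 and 0.0354). A called fall over this step was also found for 31.1% of all genes, a share like that of the markers. Control means of these 3 markers were higher at 7 days than at 72 h. With quantile normalization 1 change between neighbouring times was called among the markers, and with upper quartile scaling 0.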

How the results depend on the processing

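Of the differences of single markers and ratios under the alternatives, 1795 kept their direction and side of the threshold, 140 lost the call, 46 gained it, 49 moved without a call, and 2 reversed: Dpt (-0.45) and Ly6a (-1.21) at 7 days with the nearly empty injured library of mouse 5 kept. With that library kept, the 10 h and 48 h tests called 1 marker each and those of 24 h, 7 days and 14 days 0, and Dcn at 72 h (1.31) was not called (adjusted p = 0.254). The lost calls include ratios with 1 leg left out, where 4 legs against 5 cannot pass the exact test after adjustment. For the ratios the tally is thus no measure of stability. Quantile normalization called 0 at 24 h, 2 by the 48 h test, and for 72 h gave 0.032 for Pdgfrb and 0.89 for Dcn. Upper quartile scaling called 1 at 24 h, 3 by the 48 h test and 2 after 14 days, with 0.72 for Pdgfrb and 0.45 for Dcn at 72 h. With the mean of the 9 control groups as comparator 8 were called after 7 days, 6 after 14, and 1 each after 21 and 28, and Pdgfrb at 72 h was 0.78. Library weights, whose estimate did not converge, called 5 at 10 h, 1 by the 24 h test, 8 after 14 days and 3 after 21. Each time fitted alone called 0 at 7 days and 0 at 14 days. At 14 days 0 were called with a pseudocount of 1 or 0.01, no filter, a group mean of at least 5 FPKM or libraries B of the 24 h mouse 3, and at 24 h 1 was called with no filter or libraries B. The replicate block of the mouse called 4 at 14 days and changed no other count by more than 1.5 times. Both legs of the 7-day mouse 2 left out, an alternative chosen after seeing the data, left 3 at 7 days. For the counts of called markers in this paragraph, the share of all genes is not given.

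Changes between neighbouring times, 3 called, became 1 with quantile normalization, 0 with upper quartile scaling and 16 with library weights. The control groups, 1 called, became 0 with a pseudocount of 1 or quantile normalization. The 6 called ratios became 0 with a pseudocount of 1, and 14 in the limma fit added after seeing the data.

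Leaving out each replicate in turn, the counts ran between 2 and 3 for 10 h, 1 and 2 for 24 h, 2 and 6 for 48 h, 8 and 9 for 72 h, 0 and 6 for 7 days and 0 and 5 for 14 days, and were 0 for 3 h, 21 days and 28 days. Differences at 72 h ran between 2.73 and 3.31 for Pdgfra, 1.35 and 1.69 for Pdgfrb, 1.13 and 1.48 for Dcn, 2.48 and 2.69 for Lum, 2.11 and 2.37 for Dpt, 2.36 and 2.65 for Fap, 2.96 and 3.48 for Cd248, 2.82 and 3.20 for Ly6a, and 1.89 and 2.33 for Acta2. The neighbouring-time count ran between 0 and 3, the control count between 0 and 1, the ratio count between 0 and 6 (4 legs against 5 cannot pass the exact test after adjustment, so this says nothing of stability), and the isoform share count was 0 throughout. Legs that moved a count by more than 1.5 times are named beside that count in the report. Causes were not tested.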

Other observations

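A control library whose time the labels do not give was in no comparison. It had 98.9 FPKM of Dcn, 35.8 of Ly6a, 9.90 of Dpt, 7.90 of Lum, 4.85 of Acta2, 2.45 of Pdgfrb, 1.07 of Fap, 0.986 of Pdgfra and 1.01 of Cd248. Each value lay within the range of the 39 control legs of known time, with 14 (Lum) to 25 (Ly6a) of those legs below it.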
